A study of Homo sapiens with 8 samples.

Results

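SK-Hep1 is a long-established human line from a liver cancer, and its sorafenib-resistant form was compared in 2 states: with COL6A3 silenced by siRNA and recombinant endotrophin supplied, and with control siRNA and no endotrophin. Members of the comparison were all named genes that passed a filter on low counts, 15684 of the 28278 named genes in the count table, measured in 4 of the 8 poly(A)-selected RNA-seq libraries of the study. The other 4 libraries, used for reference, were resistant cells given COL6A3 siRNA alone and sensitive cells given control siRNA, so that every one of the 4 groups held 2 libraries. All groups came from the same line grown in serum-containing medium, all were transfected with an siRNA, and all carry the same batch label. No group received endotrophin with control siRNA, so an effect of endotrophin can be read only on silenced cells. Neither the dose, vehicle and exposure time of endotrophin nor the siRNA sequences, the route to resistance or the presence of sorafenib at collection is stated in the sources used here. The labels call the 2 libraries of a group biological replicates without saying what was repeated, so p-values measure the spread between these libraries, which may be technical.

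Collagen VI is a microfibrillar collagen of the pericellular matrix, built from a COL6A1 and a COL6A2 chain with a further chain that is usually COL6A3. Endotrophin is the C-terminal fragment released from the COL6A3 chain after secretion, and it acts outside the cell as a signalling peptide linked to fibrosis and tumour progression. Silencing COL6A3 is therefore aimed at lowering both the structural chain and the source of the fragment, while recombinant endotrophin supplies the fragment without the chain. Sorafenib is an inhibitor of RAF and receptor tyrosine kinases used against liver cancer.

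Libraries of the comparison held 30461668 and 31569154 counts in resistant control cells and 44116043 and 35397934 counts in silenced cells with endotrophin. The Pearson correlation of log2(CPM + 1) across genes within a group was 0.988 to 0.993 over the 4 groups, where CPM is the count scaled to library size. Between 72.8% and 77.6% of counts from 1 to 20 were even numbers, against 49.6% to 50.9% of counts of 500 or more. Whether both reads of a pair were counted is not stated in the sources used here, so a low count may stand for fewer fragments. Of 20 hepatocyte markers, 8 were at 0 in all 8 libraries, ALB, APOA1 and TTR among them, and 4 passed the filter. Of 18 endothelial markers, 4 were at 0 in all 8 libraries, CLDN5, EMCN and SOX17 among them, and 7 passed the filter. The labels call the cells only a cancer cell line.

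In silenced cells with endotrophin, 2981 genes differed from resistant control, 19.0% of the genes tested, at an adjusted p under 0.05 (edgeR's quasi-likelihood test, Benjamini-Hochberg adjustment over all genes tested). Of these, 1581 were higher (10.1%) and 1400 were lower (8.93%). The difference was over 2-fold for 597 of them, 424 higher and 173 lower. Both libraries of the higher group lay above both of the other for every one of the 2981, but that was also so for 57.3% of all genes tested. The median log2 fold change over all genes tested was 0. Without the second library with endotrophin, 1972 genes were called, and the number lower fell from 1400 to 849.

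The called genes were sorted by what siRNA alone had done. COL6A3 siRNA alone changed 3505 genes against the same control libraries (22.3%), and 1907 of these, 54.4%, were changed in the same direction with endotrophin present. Those 1907 genes, 1080 higher and 827 lower, are called not restored here. Endotrophin against siRNA alone was not called for 1694 of them, 116 had moved part of the way back, and 97 had moved further out. A further 498 genes (3.18% of the genes tested) moved back. For these, siRNA alone was called against control, and the libraries with endotrophin differed from siRNA alone the other way. No difference from control was called with endotrophin. Another 306 genes (1.95%) were new in the combined state: they differed from resistant control and, in the same direction, from siRNA alone, while siRNA alone against control was not called. That is 10.3% of the 2981 genes called. Leaving out 1 library changed both numbers: 154 genes were new without the second and 198 without the first library with endotrophin, and 257 moved back without the first library of siRNA alone and 297 without the second with endotrophin. The 3 comparisons share libraries in pairs, so these numbers describe how the calls fall and are not independent of each other. For the 1079 genes called with siRNA alone only, a missed threshold with endotrophin does not show a return to the control level. A broader 1053 of the 2981 genes (35.3%) were called with endotrophin and not with siRNA alone. For 747 of these, endotrophin against siRNA alone was not called either, so they are not counted as new.

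**Figure D1:**
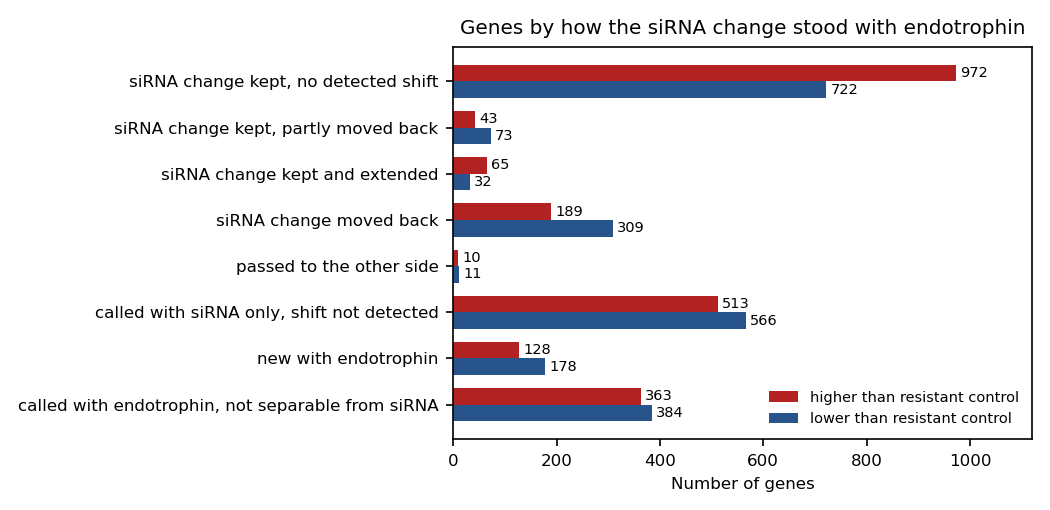
Number of genes in each class, drawn to the right as horizontal bars, with red for higher and blue for lower. Direction is against resistant control with endotrophin present, except in the classes moved back and called with siRNA alone only, where it is that of siRNA alone. Within the 1907 genes not restored, the longest bars are those of the genes with no called difference between endotrophin and siRNA alone, 972 higher and 722 lower.

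The targeted gene was COL6A3 (chromosome 2, 237324018 to 237414164, GRCh38). It stood at 135 and 136 CPM in resistant control and at 42.7 and 45.0 CPM with siRNA alone. Silenced cells with endotrophin held 65.9 and 71.3 CPM, above both libraries with siRNA alone and below both control libraries. COL6A3 was thus still lower than control by a log2 fold change of -0.98 (standard error 0.11, edgeR adjusted p = 1.14e-06), and higher than with siRNA alone by 0.65 (edgeR adjusted p = 0.000739). Sensitive cells held less than any of these, at 17.8 and 19.7 CPM. COL6A3 RNA was thus less reduced in the libraries with endotrophin than with siRNA alone. Whether this had a part in the genes that moved back, wholly or part of the way, was not tested.

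The partner chains went the other way and were not restored. COL6A1 (chromosome 21, 45981770 to 46005048) was at 30.0 and 41.1 CPM in control and at 125 and 124 CPM in silenced cells with endotrophin. The log2 fold change was 1.81 (standard error 0.13, edgeR adjusted p = 1.61e-09). With siRNA alone it was at 121 and 135 CPM, and the endotrophin difference was -0.04 with a 95% interval of -0.30 to 0.21. COL6A2 (chromosome 21, 46098112 to 46132848) rose from 118 and 132 CPM to 269 and 256 CPM, a log2 fold change of 1.07. Among 10 genes for proposed endotrophin or collagen VI receptors, 5 were called against control, all higher, where 10.1% of all genes tested were higher. BCAM, a laminin-binding adhesion protein, rose the most of these 5, from 5.25 and 6.70 CPM to 34.2 and 32.3 CPM, and exceeded siRNA alone (16.0 and 17.9 CPM). CD44, a hyaluronan receptor (chromosome 11, 35139171 to 35232402), was at 1425 and 1390 CPM in control and at 1641 and 1630 CPM with endotrophin. Its log2 fold change of 0.22 had an edgeR adjusted p of 0.00369, and limma on log2(FPKM + 1) gave an adjusted p of 0.0553. Neither endotrophin difference against siRNA alone was called for CD44 or for ANTXR1, a collagen-binding receptor of the anthrax toxin family.

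Many matrix and adhesion genes were not restored. The integrin subunit ITGB8, which pairs with the αv subunit to bind latent TGF-beta, had the clearest rise by adjusted p among the named genes. ITGB8 (chromosome 7, 20329766 to 20415754) was at 13.2 and 12.4 CPM in control, at 197 and 185 CPM with siRNA alone and at 225 and 215 CPM with endotrophin. That is a log2 fold change of 4.10 against control (standard error 0.12, edgeR adjusted p = 3.79e-16), with both silenced groups far above both control groups. COL1A1, the main chain of fibrillar type I collagen, was at 25.3 and 31.1 CPM in control and at 152 and 158 CPM with endotrophin, a log2 fold change of 2.46. Fibronectin (FN1) rose from 2728 and 2916 CPM to 7198 and 6604 CPM, and it was also above siRNA alone, at 5533 and 6073 CPM. Fibrillin-1 (FBN1), the core of elastic microfibrils, rose by 2.17 on the log2 scale.

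By list, 8 of 21 collagens other than type VI were higher than control and 1 was lower, where 10.1% and 8.93% of all genes tested were. The lower one was COL17A1, an epithelial transmembrane collagen. Of 27 matrix glycoproteins, 12 were higher and 2 lower, the 2 being near the share over all genes. Of 27 matrix proteases and inhibitors, 12 were higher and 3 lower, against 10.1% and 8.93% of all genes tested, and the 3 became 1 without the first library with endotrophin or the second control library. Gelatinases rose, MMP2 by 1.68 and MMP9 by 2.44 on the log2 scale. Of their inhibitors, TIMP3 rose from 3.56 and 5.21 CPM to 18.8 and 20.1 CPM, still far below the 213 and 216 CPM of sensitive cells. TIMP2 fell from 1060 and 1116 CPM to 523 and 467 CPM. ITGA6, the laminin-binding α6 integrin subunit, fell from 2123 and 2061 CPM to 1160 and 1128 CPM, and its endotrophin difference against siRNA alone was 0.03 with a 95% interval of -0.08 to 0.14. Of 16 integrin subunits, 5 were higher than control and 2 lower, where 10.1% and 8.93% of all genes tested were, so the 2 are near that share.

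**Figure D2:**
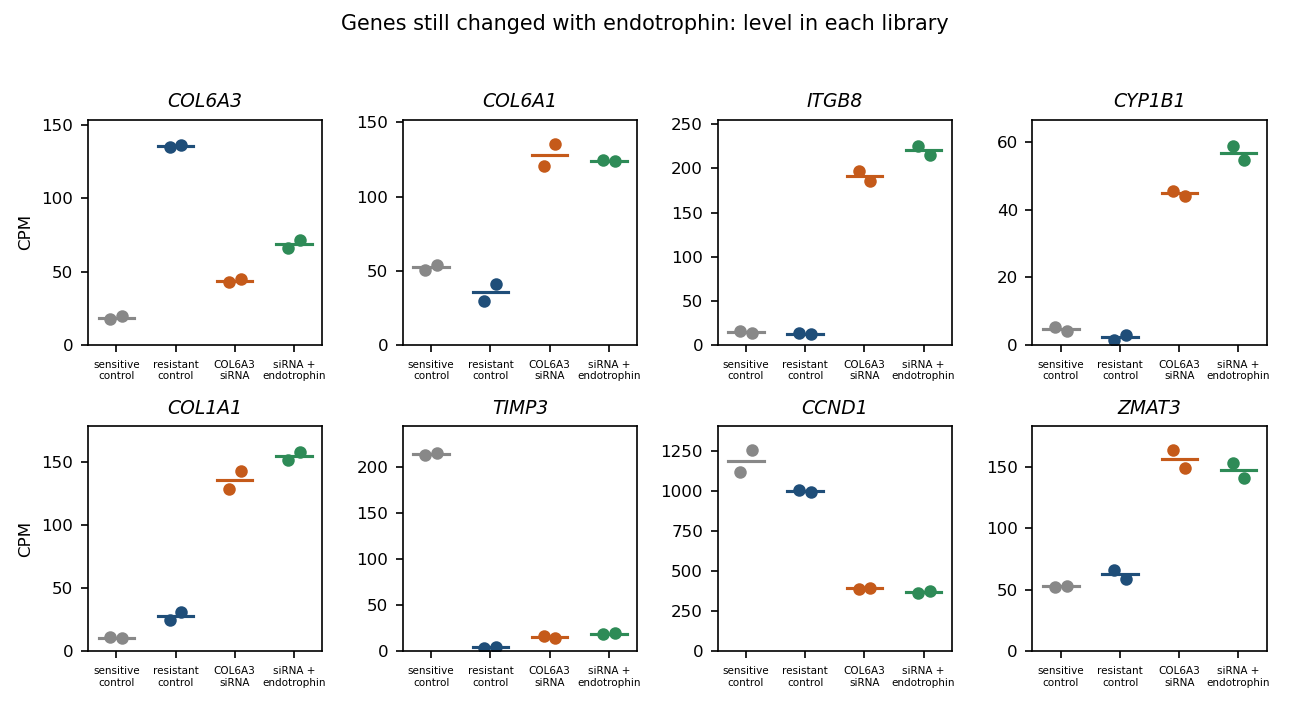
CPM in each library for 8 genes not restored, with the 4 groups side by side and a line at the mean of the 2 libraries. For ITGB8 the libraries with endotrophin stand at 225 and 215 CPM against 13.2 and 12.4 CPM in resistant control, and in each panel they lie on the same side of control as siRNA alone.

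Other large rises that were not restored fell outside the matrix. CYP1B1, a cytochrome P450 that oxidises oestrogens and polycyclic hydrocarbons (chromosome 2, 38067509 to 38076151), was at 1.46 and 3.06 CPM in control and at 58.8 and 54.7 CPM with endotrophin. ALDH1A3, which makes retinoic acid from retinal, rose from 7.71 and 4.80 CPM to 41.2 and 42.8 CPM. Endotrophin against siRNA alone was not called for either. Of 19 xenobiotic and retinoid genes, 10 were called against control, all higher, where 10.1% of all genes tested were higher. The number was 6 without the second library with endotrophin and 6 without the first control library. NEDD9, a focal-adhesion scaffold, was at 0.194 and 0.379 CPM in control and at 5.56 and 5.11 CPM with endotrophin. SLITRK6, a transmembrane protein of neurons and inner ear, rose by 4.07 on the log2 scale. UBD, a ubiquitin-like modifier induced by interferon, and PCDH7, a protocadherin, rose by 3.74 and 3.50, but DESeq2 gave adjusted p-values of 0.101 and 0.0870 for them.

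Named falls that were not restored were smaller. CHAC2, which degrades glutathione, was at 9.68 and 11.2 CPM in control and at 2.97 and 3.37 CPM with endotrophin, a log2 fold change of -1.72. PPM1K, the phosphatase that activates branched-chain amino acid breakdown, fell by 1.68 on the log2 scale. TRIP13, an ATPase of the spindle checkpoint, was at 91.3 and 88.1 CPM in control and at 31.4 and 28.0 CPM with endotrophin. ANXA9 and GPR3 were called lower by 1.97 and 1.79, but ANXA9 lost its call without the second control library (edgeR adjusted p = 0.0643) and without either library with endotrophin, and GPR3 without the first control library (edgeR adjusted p = 0.113).

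Cyclin D1 (CCND1, chromosome 11, 69641156 to 69654474), which drives cells from G1 into S phase, was at 1011 and 996 CPM in control, 390 and 400 CPM with siRNA alone and 366 and 380 CPM with endotrophin. The log2 fold change against control was -1.43 (standard error 0.067, edgeR adjusted p = 3.26e-12), and the endotrophin difference was -0.08 with a 95% interval of -0.22 to 0.05. E2F3, an activating E2F factor, fell by 0.83, MCL1, an anti-apoptotic BCL2 family member, by 0.83, and MYC by 0.57 on the log2 scale. None of these 3 differed from siRNA alone by a called amount.

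Genes of the p53 response also stayed up. Of 28 p53 targets, 17 were higher than control and 1 lower, where 10.1% and 8.93% of all genes tested were, with a median log2 fold change of 0.52 against 0 over all genes. Of the 28, 16 were not restored, where 12.2% of all genes tested were. ZMAT3, an RNA-binding p53 target, was at 66.2 and 58.9 CPM in control, 164 and 149 CPM with siRNA alone and 153 and 141 CPM with endotrophin. TP53INP1 rose by 1.59, the ribonucleotide reductase subunit RRM2B by 1.38 and the mitochondrial reductase FDXR by 1.19. CDKN1A, the cell-cycle inhibitor p21, was at 205 and 211 CPM in control and 212 and 227 CPM with endotrophin, and was not called (0.08, 95% interval -0.11 to 0.26).

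Many replication and mitosis genes, in contrast, had moved back. Of 42 S-phase genes, 33 were lower than control with siRNA alone, where 10.9% of all genes tested were. With endotrophin 6 were lower and 2 higher, where 8.93% and 10.1% of all genes were, and the 6 became 3 without the second library with endotrophin. Of the 42, 23 were in the class moved back, where 3.18% of all genes tested were. The median log2 fold change over these genes was -0.59 with siRNA alone and -0.05 with endotrophin. Against siRNA alone, 29 of the 42 were called, all higher with endotrophin, where 7.77% of all genes tested were called, 4.41% higher and 3.36% lower. That number was 17 without the second library with endotrophin. In bulk RNA, fewer cells in a phase and less RNA per cell cannot be told apart. E2F1, the E2F factor that switches on S-phase genes, was at 58.4 and 55.6 CPM in control, 27.5 and 27.8 CPM with siRNA alone and 69.4 and 62.5 CPM with endotrophin. RRM2, the regulated subunit of ribonucleotide reductase, was at 503 and 482 CPM, then 274 and 295 CPM, then 510 and 562 CPM. Of the 6 S-phase genes still lower than control, 4 had moved part of the way back, as had 116 of all 1907 genes not restored. Among the 4 was CDC6, an origin-licensing factor, at 106 and 93.7 CPM in control. It was at 38.4 and 36.3 CPM with siRNA alone and 52.1 and 57.2 CPM with endotrophin. CDT1, another licensing factor, was lower than control by 0.75 on the log2 scale. MCM5, a subunit of the replicative helicase, was above control instead, at 139 and 139 CPM against 98.0 and 97.6 CPM. E2F8, a repressive E2F factor, was the other S-phase gene above control (0.73), but not when the second library with endotrophin was left out (edgeR adjusted p = 0.0985).

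Of 38 G2/M genes, 35 were lower than control with siRNA alone, where 10.9% of all genes tested were. With endotrophin 14 were lower and 1 was higher, where 8.93% and 10.1% of all genes were. The median log2 fold change went from -0.60 to -0.20. Of the 14, all not restored, 9 had moved part of the way back, as had 116 of all 1907 genes not restored. The 14 became 7 without the first library with endotrophin, and 9 without the second or without the first control library. Whether these genes and the S-phase genes differed in their return was not tested. MKI67, the proliferation marker, was at 515 and 526 CPM in control and 462 and 418 CPM with endotrophin, a call of -0.24 that was lost without either control library and without the second library with endotrophin (edgeR adjusted p = 0.295). CDC20, which activates the anaphase-promoting complex, was at 258 and 295 CPM in control, 117 and 129 CPM with siRNA alone and 187 and 216 CPM with endotrophin. PLK1, the polo-like mitotic kinase, was at 59.6 and 59.8 CPM, 30.5 and 27.9 CPM, and 45.7 and 43.2 CPM. For both genes the groups did not overlap and endotrophin lay between the others. Their promoters are shown as examples of mitotic genes that stayed part of the way down, in RefSeq's GRCh38.p14 sequence from 250 bases before to 50 after the gene start. Capitals mark CCAAT or its reverse complement ATTGG, the box bound by NF-Y, and TTTGAA or its reverse complement TTCAAA, the core of the element read by the DREAM and MuvB complexes.
CDC20 (chr1:43358731-43359030, plus strand): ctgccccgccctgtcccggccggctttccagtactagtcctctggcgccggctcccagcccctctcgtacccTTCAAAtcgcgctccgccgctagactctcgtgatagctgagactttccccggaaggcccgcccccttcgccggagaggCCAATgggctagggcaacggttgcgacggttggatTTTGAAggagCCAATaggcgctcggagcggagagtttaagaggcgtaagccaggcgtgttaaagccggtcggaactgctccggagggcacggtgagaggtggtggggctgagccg
PLK1 (chr16:23678639-23678938, plus strand): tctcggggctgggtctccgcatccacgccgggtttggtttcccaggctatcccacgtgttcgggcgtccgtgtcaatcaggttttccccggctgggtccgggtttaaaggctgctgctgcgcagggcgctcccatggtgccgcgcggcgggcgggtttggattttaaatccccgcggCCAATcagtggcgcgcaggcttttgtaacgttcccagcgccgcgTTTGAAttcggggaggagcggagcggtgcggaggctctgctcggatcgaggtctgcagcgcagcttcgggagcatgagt
TTTGAA on either strand was in 22 of the 31 G2/M promoters with sequence (71.0%), against 10.0% of the 11742 promoters of genes tested. Among the 11 whose gene was lower than control with endotrophin it was in 7 (63.6%). CCAAT on either strand was in 23 of the 31 (74.2%) and in 8 of the 11 (72.7%), against 36.3%. The 11 are part of the 31, so these shares cannot show whether either motif differed between genes that stayed lower and the rest. No 2 of the printed matches overlap, and a match is a description of the window only.

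Outside the cell cycle, ANGPTL4, a secreted inhibitor of lipoprotein lipase, had the largest fall with siRNA alone among the named genes that moved back. It was at 49.8 and 58.7 CPM in control, 12.0 and 15.8 CPM with siRNA alone and 61.3 and 74.3 CPM with endotrophin. EGR1, a growth-factor-induced transcription factor, was at 16.1 and 18.9 CPM, 5.89 and 4.08 CPM, and 12.7 and 15.3 CPM. Among genes that siRNA had raised, CASP1, the inflammasome protease, went from 11.0 and 12.6 CPM with siRNA alone to 6.15 and 4.19 CPM, but the call against siRNA alone was lost without either library of siRNA alone and without the second library with endotrophin (edgeR adjusted p = 0.261).

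Sterol synthesis genes were lower in the combined state and mostly not with siRNA alone. Of 24 genes of cholesterol synthesis and its control, 16 were lower than resistant control and 1 was higher, where 8.93% and 10.1% of all genes were. Under the other settings tried, 14 to 17 were lower. The median log2 fold change of these 24 genes was -0.63, against 0.10 with siRNA alone. Of the 24, 11 were new in the combined state, where 1.95% of all genes tested were. Another 3 had been raised by siRNA and were now below control, and 3 had been raised by siRNA and moved back. Over all genes tested, 0.134% passed to the other side of control in either direction and 3.18% moved back. Promoters are shown of genes lowered in the early, middle and late parts of the pathway, in the same RefSeq window with CCAAT or ATTGG in capitals.
HMGCS1 (chr5:43313363-43313662, minus strand): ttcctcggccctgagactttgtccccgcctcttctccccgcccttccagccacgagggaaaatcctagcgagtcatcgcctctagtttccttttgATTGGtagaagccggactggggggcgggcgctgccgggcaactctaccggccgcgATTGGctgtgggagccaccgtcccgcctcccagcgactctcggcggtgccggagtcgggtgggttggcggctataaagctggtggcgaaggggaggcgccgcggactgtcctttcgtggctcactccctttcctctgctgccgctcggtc
LSS (chr21:46228725-46229024, minus strand): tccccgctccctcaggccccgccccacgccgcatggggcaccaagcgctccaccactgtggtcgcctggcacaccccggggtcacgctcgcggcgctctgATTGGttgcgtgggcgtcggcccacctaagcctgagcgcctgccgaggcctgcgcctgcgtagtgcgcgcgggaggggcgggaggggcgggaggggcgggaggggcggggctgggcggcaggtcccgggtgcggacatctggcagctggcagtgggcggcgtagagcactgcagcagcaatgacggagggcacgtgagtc
MSMO1 (chr4:165327419-165327718, plus strand): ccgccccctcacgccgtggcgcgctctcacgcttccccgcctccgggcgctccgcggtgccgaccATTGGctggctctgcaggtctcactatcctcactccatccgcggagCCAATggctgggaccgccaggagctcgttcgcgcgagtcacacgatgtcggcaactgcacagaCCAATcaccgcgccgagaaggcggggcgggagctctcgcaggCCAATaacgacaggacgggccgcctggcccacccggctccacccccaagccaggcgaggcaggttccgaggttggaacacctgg
CCAAT on either strand was in 15 of the 18 sterol promoters with sequence and in 12 of the 14 whose gene was lower than control, against 36.3% of the promoters of genes tested. TTTGAA was in 1 of the 18.

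LSS, which closes squalene epoxide into the first sterol (chromosome 21, 46188446 to 46228774), was at 348 and 347 CPM in control, 307 and 336 CPM with siRNA alone and 163 and 155 CPM with endotrophin. Sensitive cells held 372 and 406 CPM, so the 2 libraries with endotrophin stood below all 6 others. The log2 fold change was -1.13 against control (standard error 0.080, edgeR adjusted p = 1.59e-09) and -1.02 against siRNA alone. MSMO1, the C4-methylsterol oxidase (chromosome 4, 165327669 to 165343164), was at 187 and 152 CPM in control, 152 and 140 CPM with siRNA alone and 76.0 and 72.6 CPM with endotrophin. HMGCS1, which makes HMG-CoA (chromosome 5, 43287470 to 43313412), was at 443 and 375 CPM in control, rose to 610 and 586 CPM with siRNA alone and fell below control to 244 and 248 CPM with endotrophin. FDPS, the farnesyl diphosphate synthase, followed the same course, at 139 and 148 CPM, 181 and 182 CPM, and 92.4 and 82.2 CPM. INSIG1, which holds the SREBP precursors in the endoplasmic reticulum, fell by 0.68 on the log2 scale.

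Not every sterol gene took part. SQLE, the squalene epoxidase, was not called against control (-0.13), and it stood lower with endotrophin than with siRNA alone. SREBF2, the gene for the main sterol-regulating factor, was not called (-0.14). STARD4, a cholesterol carrier, was the 1 gene of the list above control, at 292 and 279 CPM against 226 and 176 CPM, and it stood at 270 and 285 CPM with siRNA alone. ABCA1, which exports cholesterol from the cell, was new in the opposite direction, at 27.2 and 19.8 CPM in control, 31.8 and 29.7 CPM with siRNA alone and 76.9 and 64.9 CPM with endotrophin (log2 fold change 1.59, standard error 0.16, edgeR adjusted p = 2.17e-07).

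Of 13 fatty-acid synthesis genes, 6 were lower than control and 1 was higher, where 8.93% and 10.1% of all genes tested were, and 6 were not called. Against siRNA alone 9 were lower and 1 was higher, where 3.36% and 4.41% of all genes were. FASN, the fatty-acid synthase, was at 3618 and 4383 CPM in control, 2208 and 2795 CPM with siRNA alone and 1572 and 1423 CPM with endotrophin, each step without overlap. ACLY, which supplies cytosolic acetyl-CoA, was at 1320 and 1290 CPM, 1124 and 1154 CPM, and 640 and 643 CPM. SCD, the stearoyl-CoA desaturase, had been raised by siRNA to 3562 and 3740 CPM and was back at 1966 and 1874 CPM, beside 2075 and 1951 CPM in control.

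Of 27 genes of the unfolded-protein response and chaperones, 14 were called against control, all lower, where 8.93% of all genes tested were lower. With siRNA alone 12 of the 27 were already lower and 1 was higher, where 10.9% and 11.4% of all genes were. The median log2 fold change was -0.26 with siRNA alone and -0.24 with endotrophin. Of the 14, 8 were not restored and 5 were new, where 12.2% and 1.95% of all genes tested were. HSPA8, the constitutive cytosolic HSP70, was at 2506 and 2554 CPM in control, 1936 and 1925 CPM with siRNA alone and 1353 and 1389 CPM with endotrophin. XBP1, a transcription factor of the unfolded-protein response, was at 46.4 and 41.6 CPM in control and 23.4 and 21.0 CPM with endotrophin. HSPA1A, an inducible HSP70, was at 53.3 and 63.2 CPM in control, 54.5 and 58.6 CPM with siRNA alone and 28.5 and 33.6 CPM with endotrophin. HSPA1B, its near-identical neighbour, fell by 0.97 on the log2 scale, and how reads were divided between the pair is uncertain.

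**Figure D3:**
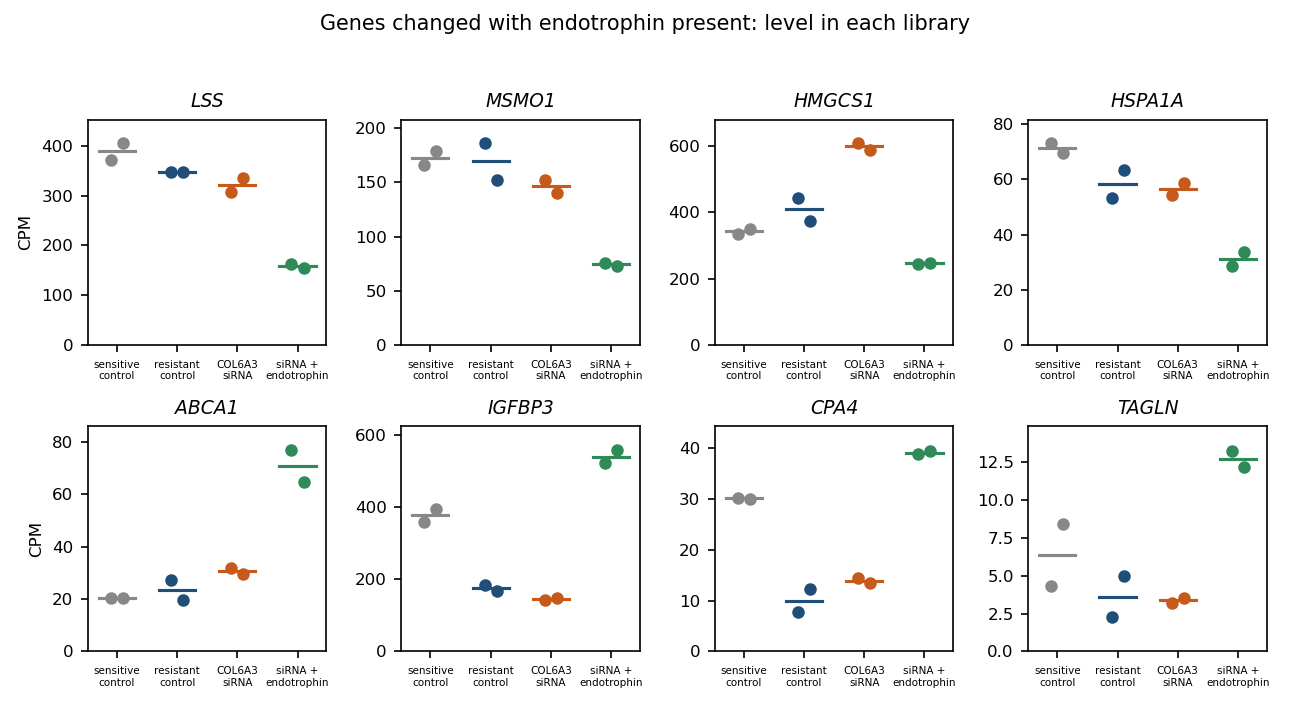
CPM in each library for 8 genes that were new in the combined state or had passed to the other side of control, with the 4 groups side by side and a line at the mean of the 2 libraries. The libraries with endotrophin stand apart from both other resistant groups: LSS is at 163 and 155 CPM beside 348 and 347 CPM in resistant control, and IGFBP3 at 522 and 558 CPM beside 184 and 167 CPM.

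Other genes stood above control at levels that siRNA alone had not reached. IGFBP3, a carrier of insulin-like growth factors (chromosome 7, 45912245 to 45921272), was at 184 and 167 CPM in control, lower with siRNA alone at 142 and 147 CPM, and at 522 and 558 CPM with endotrophin. Its log2 fold change was 1.62 against control (standard error 0.082, edgeR adjusted p = 8.52e-12) and 1.90 against siRNA alone. IGFBP5 was at 0.389 and 2.02 CPM in control and 5.19 and 7.56 CPM with endotrophin, and DESeq2 gave it an adjusted p of 0.0579. IGFBP1 and IGFBP4 rose by 1.81 and 0.96 on the log2 scale, both further than with siRNA alone. PLAT, the tissue plasminogen activator, was at 166 and 152 CPM in control, 166 and 156 CPM with siRNA alone and 325 and 346 CPM with endotrophin. COL4A1, a basement-membrane collagen chain, was at 80.9 and 91.9 CPM, 97.0 and 106 CPM, and 166 and 156 CPM, and its partner chain COL4A2 rose by 0.53. CPA4, a secreted carboxypeptidase, was at 7.71 and 12.4 CPM in control and 38.8 and 39.5 CPM with endotrophin. TAGLN, the smooth-muscle actin-binding protein, was at 2.27 and 4.96 CPM in control and 13.2 and 12.2 CPM with endotrophin.

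CRISPLD2, a secreted protein, had the largest rise of the named genes new in the combined state, from 1.49 and 1.96 CPM to 11.7 and 13.5 CPM, a log2 fold change of 2.87. KRT81, a hair keratin, rose by 2.17, though its 2 libraries with endotrophin were apart at 49.5 and 83.6 CPM, and related hair keratins are near-identical, which makes its counts uncertain. FOSB, an AP-1 subunit, rose by 2.02, and its call was lost without the second library with endotrophin (edgeR adjusted p = 0.0640). Of the falls, NEU1, a lysosomal sialidase, was at 89.2 and 85.6 CPM in control, 71.2 and 86.7 CPM with siRNA alone and 39.2 and 38.7 CPM with endotrophin. SPP1, the matrix cytokine osteopontin, fell from 277 and 294 CPM to 156 and 163 CPM. ZFP36, which destabilises AU-rich mRNAs, fell by 1.34, and the signalling adaptor GAB2 by 1.22.

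Some genes moved further from control at each step. RRAD, a Ras-related GTPase, was at 5.77 and 3.03 CPM in control, 18.8 and 21.3 CPM with siRNA alone and 72.7 and 73.5 CPM with endotrophin (log2 fold change 4.06 against control and 1.86 against siRNA alone). RARB, a retinoic acid receptor, was at 2.14 and 1.33 CPM, 5.95 and 7.40 CPM, and 17.1 and 19.1 CPM. The heparan sulfate proteoglycan SDC4 was at 142 and 144 CPM, 269 and 270 CPM, and 376 and 379 CPM. HMOX1, the stress-induced haem oxygenase, rose by 1.29 against control. Downward, SOCS3, a feedback inhibitor of JAK and STAT signalling, was at 36.7 and 37.4 CPM, 18.8 and 19.0 CPM, and 11.5 and 7.19 CPM. MTMR4, a phosphoinositide phosphatase, fell by 0.35 with siRNA alone and by 1.56 with endotrophin.

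In 21 genes siRNA and endotrophin gave called differences from control in opposite directions, 10 ending higher and 11 lower; this class was chosen after its values were seen. Besides IGFBP3, HMGCS1 and FDPS it held RGS4, a brake on G-protein signalling, at 38.1 and 41.6 CPM in control, 15.3 and 19.0 CPM with siRNA alone and 71.4 and 71.4 CPM with endotrophin. LOXL2, a collagen-crosslinking oxidase, was at 476 and 518 CPM, 408 and 442 CPM, and 727 and 673 CPM. The transcription factor STAT6 went the other way, at 111 and 119 CPM, 137 and 153 CPM, and 75.8 and 79.5 CPM.

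**Figure D4:**
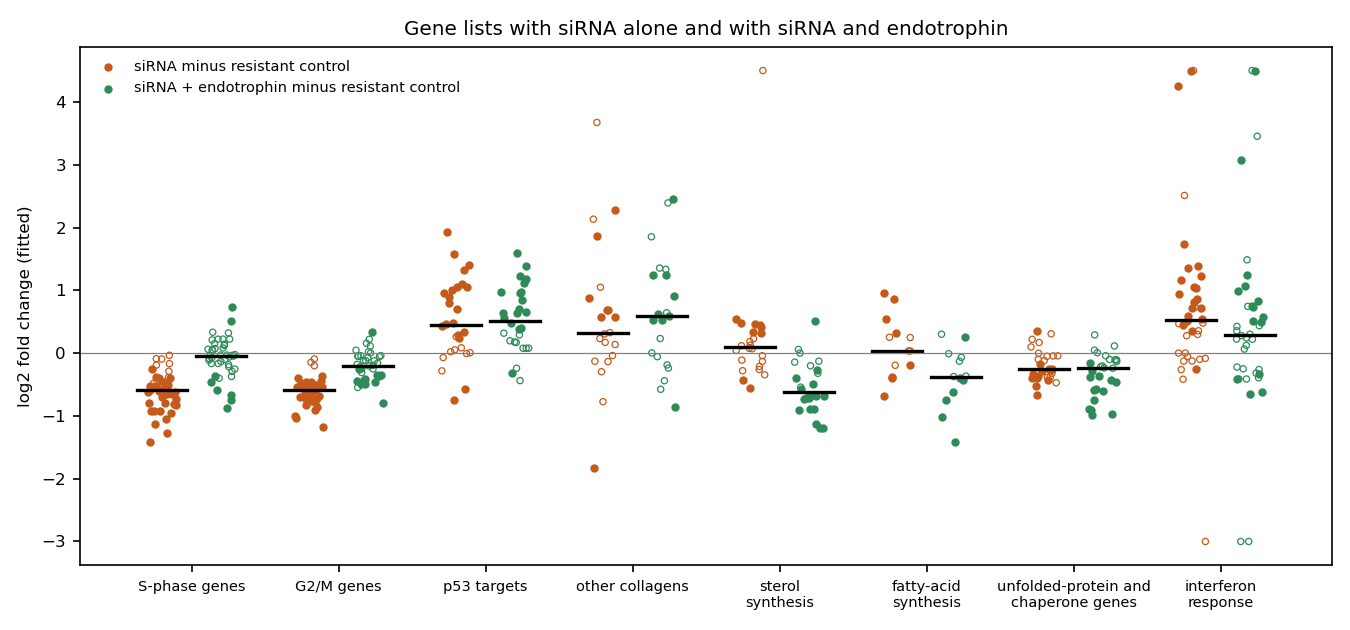
Fitted log2 fold change against resistant control for each gene of 8 lists, with siRNA alone in orange and siRNA with endotrophin in green, filled where called, and a bar at each list's median. The S-phase median goes from -0.59 to -0.05 and the sterol median from 0.10 to -0.63, while the p53 medians are 0.45 and 0.52. Values beyond the axis limits are drawn at its ends.

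Of 38 interferon-response genes, 11 were higher than control, where 10.1% of all genes tested were, and 4 were lower, a share near the 8.93% of all genes (2 were lower without the second library with endotrophin). Against siRNA alone 1 was higher and 8 were lower, where 4.41% and 3.36% of all genes were, and the 8 became 5 without the second library with endotrophin or the second library of siRNA alone. OAS2, an RNA-sensing synthetase, was at 2.85 and 3.79 CPM in control, 11.0 and 11.1 CPM with siRNA alone and 7.71 and 8.07 CPM with endotrophin. ISG15, a ubiquitin-like modifier, was called higher by 1.07, a call lost without the first control library (edgeR adjusted p = 0.157). STAT2, the interferon signal transducer, was below control at 50.4 and 38.7 CPM against 72.6 and 63.9 CPM, and OAS3 fell by 0.64. Levels in sensitive cells were higher than in every resistant library for OAS2, at 70.1 and 93.2 CPM.

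A small set of genes was undetected in control. Of the genes called, 35 had 0 counts in both resistant control libraries, and 5 had 0 in both libraries with endotrophin. A gene at 0 in both control libraries passed the filter through other groups only and could be called only higher, so its direction is no result. The 35 and the 5 are not compared: tested genes at 0 in each pair were not counted, and the control libraries held fewer counts. IL34, a ligand of the CSF1 receptor, was at 3.75 and 3.42 CPM with endotrophin, at least 37.4-fold higher than a floor of 3 counts per control library, and at 3.97 and 3.09 CPM with siRNA alone. BMF, a pro-apoptotic BH3-only protein, was at least 30.2-fold higher, at 3.71 and 2.08 CPM. ARC, an activity-induced gene, was at 2.74 and 2.05 CPM with endotrophin and at 0.882 and 0.304 CPM with siRNA alone. If each fragment gave 2 counts, the bounds would be 18.7-fold for IL34 and 15.1-fold for BMF, a reading added after the share of even counts was seen. These 3 genes were picked after their values were seen, and the bounds cover counting error only.

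Of 16 drug transporters, 0 were called in either direction by edgeR, 0 by DESeq2 and 0 by limma on log2(FPKM + 1), where 19.0% of all genes tested were called. At an unadjusted p under 0.05 there were 4, and the other settings of edgeR gave 0 to 2 calls, with 2 without the filter on low counts and 2 without the second control library. Of 11 kinases inhibited by sorafenib, 1 was called, a share below the 19.0% over all genes. FGFR1, a fibroblast growth factor receptor, rose from 95.6 and 95.4 CPM to 179 and 183 CPM, also above siRNA alone at 132 and 144 CPM.

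Marker genes of other cell types moved beside these results, and their part in them was not tested. The summed level of 17 stellate-cell and fibroblast markers, 14 of them tested, was 394 to 429 CPM in control and 638 to 661 CPM with endotrophin. With siRNA alone it was already 592 to 669 CPM, and in sensitive cells 801 to 814 CPM. Of the 14, 4 were called higher with endotrophin than in control, where 10.1% of all genes tested were, and 10 were not called. The 4 were THY1, ACTA2, S100A6 and TAGLN. With siRNA alone 5 of the 14 were already higher, where 11.4% of all genes were. ACTA2 lost its call without the second control library (edgeR adjusted p = 0.107) and without either library with endotrophin. The sum over 18 endothelial markers, 7 of them tested, was 157 to 173 CPM in control and 104 to 114 CPM with endotrophin. With siRNA alone it was already 100 to 119 CPM, and in sensitive cells 134 to 140 CPM. Of the 7, ENG and ROBO4 were called lower with endotrophin, where 8.93% of all genes tested were. With siRNA alone 3 were lower, where 10.9% were. The median log2 fold change of the 7 with endotrophin was 0. CDH5, FLT1 and PLVAP were at 0 in the control and endotrophin libraries. For 20 hepatocyte markers, 4 of them tested, the sum was 20.1 to 34.6 CPM in control, 38.4 to 40.1 CPM with siRNA alone and 50.3 to 55.6 CPM with endotrophin. SERPINA1 was the 1 hepatocyte gene of the 4 called, and it was higher, where 10.1% of all genes tested were. For 14 macrophage and leukocyte markers the sum was 104 to 114 CPM in control, 92.5 to 111 CPM with siRNA alone and 109 to 110 CPM with endotrophin. CD163, LYZ and CD3E were at 0 in the control and endotrophin libraries. In those 4 libraries 13 of the 18 endothelial and 17 of the 20 hepatocyte markers were under 1 CPM, so few genes carried these sums.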

How the data were processed

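The authors deposited gene counts and FPKM values for 8 libraries from poly(A)-selected RNA, prepared after TRIzol extraction per the labels' protocols. Build GRCh38 is named in the submitters' processing notes; the aligner, the counter and the strand setting were not stated there. The deposited counts were whole numbers, with 1 entry of no gene name holding 0 counts. The deposited FPKM values were used only as an alternative, tested with limma 3.58.1 on log2(FPKM + 1) and log2(FPKM + 0.1). Counts were fitted with edgeR 4.0.16 in R 4.3.3: filterByExpr, TMM factors (0.981 to 1.02), the quasi-likelihood test over all 8 libraries in 1 fit of 4 groups, and Benjamini-Hochberg adjustment with a threshold of 0.05. Each gene had 1 estimate of spread shared by the 4 groups, with 4 residual degrees of freedom. That estimate was drawn towards those of other genes, with a median of 17.4 prior degrees of freedom. The p-values thus lean on the spread of other genes. An exact permutation of 2 against 2 libraries could not go below p = 0.333. CPM used TMM-scaled totals. DESeq2 1.42.0 was an alternative.

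The members and lists were chosen with earlier results of these data known. Named genes were COL6A3, COL6A1, COL6A2 and CD44, the 10 largest called rises and falls with both libraries of the higher group at 5 CPM or more, the largest of each class and up to 4 called members per list. CDC20, PLK1, E2F1, RRM2, MCM5, TIMP2, IGFBP4, PLAT, COL4A2, STAT2, OAS3, SCD, STARD4, INSIG1 and the class that passed to the other side of control were added after their values were seen. Levels are CPM and are compared between libraries for 1 gene, not between genes. Gene positions and promoters are from RefSeq, GRCh38.p14; 210 of 211 named genes had a position. Bounds for genes at 0 use 3 counts and cover counting error only.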

Additional observations from a re-analysis of the deposited data

How the results depend on the processing

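Against 2981 genes called, 1907 not restored, 306 new and 498 moved back, DESeq2 gave 3242, 2053, 389 and 608, and no filter on low counts gave 3258, 2069, 375 and 586. Halved counts gave 3196, 2037, 351 and 539. With limma on log2(FPKM + 1) the numbers were 2145, 1322, 148 and 218, and on log2(FPKM + 0.1) 2157, 1347, 153 and 210. Asking for over 2-fold left 597, 441, 42 and 46. Leaving out 1 library at a time gave 1972 to 3100 called, 1410 to 1617 not restored, 154 to 318 new and 257 to 482 moved back. New genes were 198 without the first and 154 without the second library with endotrophin. Genes moved back were 257 without the first library of siRNA alone and 297 without the second with endotrophin. With the replicate number as a block, edgeR called 3113, 1986, 338 and 537, but the numbers do not pair the samples: deviations from the group means correlated at -0.050 to 0.075 between groups. No direction reversed. Of the 211 named genes, 62 lost their call in at least 1 alternative and 149 stayed on the same side of the threshold in every one. Over alternatives, 593 list medians moved by less than the spread between libraries and 52 by more. Depth limits the genes near or under 1 CPM.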
